A study of Rattus norvegicus with 6 samples.

Results

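The genes described here encode the pyruvate dehydrogenase complex, the enzymes of the tricarboxylic acid (TCA) cycle, the malate-aspartate shuttle, and the carriers and enzymes that move citrate, oxaloacetate and malate in and out of the cycle. There were 31 of them among 18816 genes tested. They were chosen by symbol, with no measured value in the rule but with earlier results of these data known. The array design carried 29 under the same symbol, and 2 were found through their RefSeq accession, Pcx as Pc and Idh3b as Idh3B. Together they had 36 probes, and 5 genes had a second probe. All 31 were well above background on all 6 arrays.

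Left ventricle of male rats was profiled on 6 expression arrays of 1 colour, each taken here as 1 rat. The labels give 3 independent experiments per strain. The 3 OLETF rats were labelled type 2 diabetic and were 27, 28 and 27 weeks old. The 3 LETO rats, the non-diabetic control strain, were 27, 28 and 28 weeks old. OLETF is a strain of obese rats that carry a deletion in a cholecystokinin receptor gene, so strain and diabetes cannot be told apart in this design. No diet or drug is given in the labels for either strain.

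In the heart, most ATP is made in mitochondria from fatty acids, glucose and lactate. Pyruvate dehydrogenase turns pyruvate into acetyl-CoA, and the TCA cycle oxidises acetyl-CoA from any fuel to carbon dioxide while it loads NADH and reduced flavins for the respiratory chain. The malate-aspartate shuttle carries the reducing equivalents of glycolysis across the inner mitochondrial membrane. Anaplerotic enzymes such as pyruvate carboxylase refill the cycle.

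Between 75.5% and 79.8% of an array's spots were well above background, none was saturated, and the 75th percentile ranged over 1271 to 1827 intensity units. OLETF 1 shared a slide with the LETO arrays, while OLETF 2 and 3 were hybridised together on the other slide. LETO 1 stood apart on the second principal component, which held 23.8% of the variance, and had the lowest array quality weight, 0.205. The 10 cardiomyocyte markers (such as Myh6, Tnnt2 and Myl2) were all well above background on every array. By limma 0 were called and 0 had an unadjusted p under 0.05, and all 10 were lower in OLETF, with a median log2 difference of −0.09. Their summed level, in multiples of the array's 75th percentile, was between 2823 and 3406 in OLETF and between 3003 and 3419 in LETO. LETO 1 was the highest array for all 4 lymphocyte markers tested. Of these, Cd8a was well above background on 2 of 3 OLETF arrays and entered the test through LETO, where it is higher. Cd3g and Nkg7 were called, lower in OLETF (limma, adjusted p = 0.0178 and 0.0220). Both calls were lost with slide as a block, that of Cd3g also without OLETF 2, OLETF 3, LETO 1 or LETO 2, and that of Nkg7 without OLETF 1, OLETF 2, OLETF 3 or LETO 2. Smooth muscle markers had a median difference of −0.44, with 4 of 5 lower in OLETF and 0 called (limma, 2 at an unadjusted p under 0.05). Of 3 red blood cell markers 1, Slc4a1, was called, higher by 3.19 on the log2 scale, a call lost with slide as a block. The other 2 red blood cell markers were lower in OLETF, and the median of the 3 was −0.94. The medians of the adipocyte, fibroblast, endothelial and macrophage markers lay between −0.05 and 0.10, with 0 called. At an unadjusted p under 0.05 (limma) were 0 of 4, 3 of 8, 1 of 8 and 1 of 6. Those 3 fibroblast markers went both ways, with Dcn (0.40) and Pdgfra (0.33) higher and Postn (−1.75) lower in OLETF. Postn and the adipocyte marker Retn were well above background on 2 of 3 OLETF arrays and entered the test through LETO. The part of these cells in the results below was not tested. In bulk tissue, fewer cells of a type and less RNA per cell cannot be told apart.

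No gene of pyruvate oxidation, the TCA cycle or the shuttles passed the test between the strains. With limma and Benjamini-Hochberg adjustment over all genes at 0.05, 0 of 31 were called, whereas 2.55% of all genes tested were. At an unadjusted p under 0.05 there was 1 gene of the 31, Pdha1, the catalytic alpha subunit of pyruvate dehydrogenase, against 12.4% of all genes. The difference, OLETF minus LETO on the log2 scale, was positive for 14 genes and negative for 17, with a median of −0.0069 against −0.0084 over all genes. It ran between −0.27 for Pdha1 and 0.25 for Idh2, the mitochondrial NADP-dependent isocitrate dehydrogenase.

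The values were also bounded. The 95% interval of the difference lay inside 1.5-fold in either direction for 31 of 31 genes, against 77.3% of all genes. It lay inside 1.25-fold for 17 genes, 54.8%, against 30.5% of all genes. The median size of the difference was 0.0452 for the 31 genes and 0.0979 for all genes, while the median standard errors were 0.111 and 0.117. Whether the 31 genes stand apart from other genes of like signal was not tested.

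**Figure D1:**
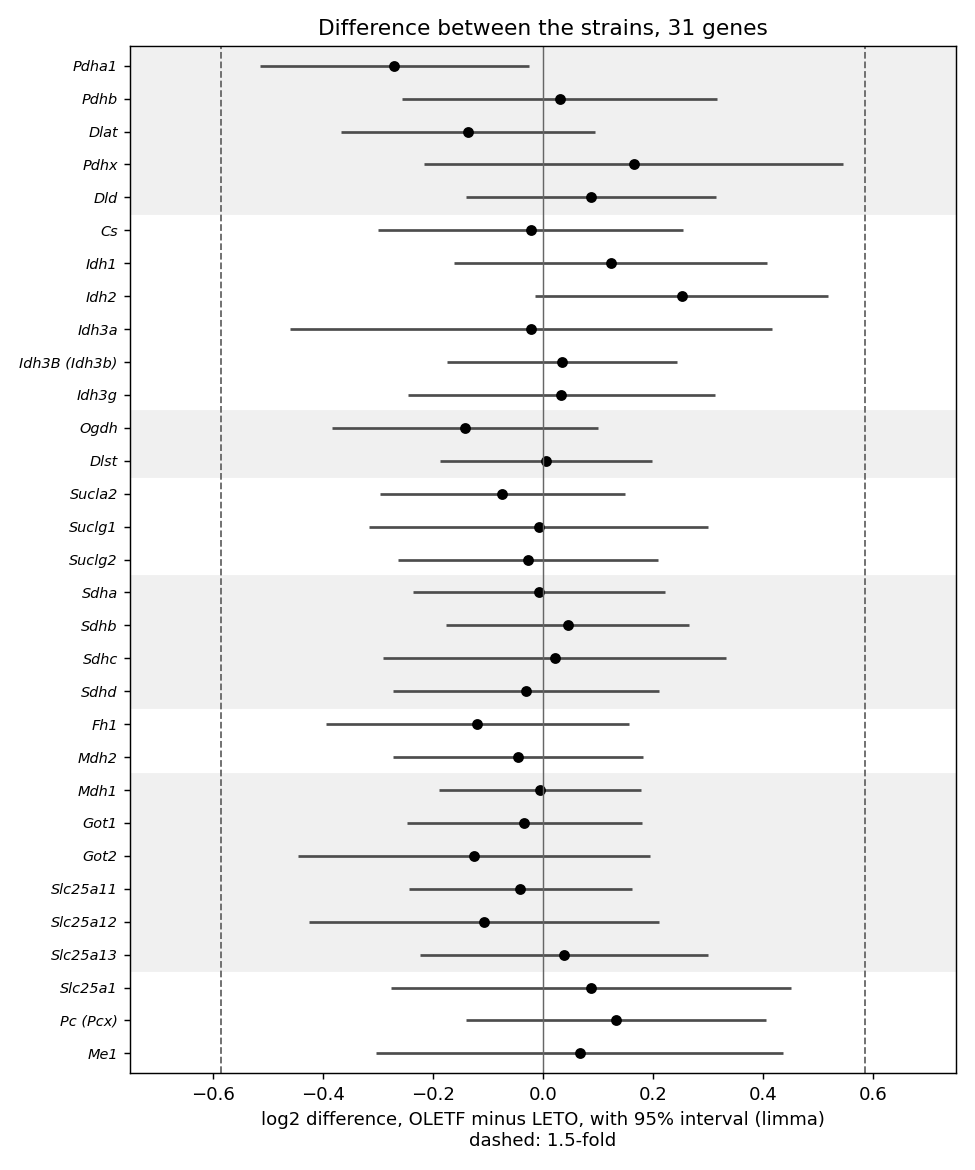
Log2 difference (OLETF minus LETO) of each of the 31 genes on the x axis, as a point with its 95% interval from limma over 3 arrays per strain; dashed lines mark 1.5-fold and shading separates the roles. All 31 intervals lie between the dashed lines, and the interval of Pdha1 alone lies wholly on 1 side of 0.

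The 3 arrays of a strain overlapped those of the other for 29 of the 31 genes. The strains did not overlap for Pdha1, lower in OLETF, and Idh2, higher in OLETF, which makes 2 of 31 against 17.4% of all genes. The probes behind these values are shown because both genes rest on them. Pdha1 was read by 2 probes on rn4 chromosome X, at chrX:55913153-55913212 and chrX:55913260-55913319 on the plus strand, and Idh2 by 1 probe at chr1:135876105-135876164 on the minus strand. The first 30 of the 60 bases of each are given in 5′ to 3′ order, with no base marked.
Pdha1, first probe: ggtggtgggttctctgttccacctataaag
Pdha1, second probe: atccaaacagaaatgtaaatgtgctgtgaa
Idh2: aggcaggaacggtgcgctttacctcagcca

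Values below are log2 of the processed signal over the array's 75th percentile, in the order of replicates 1, 2 and 3. Pdha1 stood at 5.46, 5.42 and 5.37 in OLETF, against 5.51, 5.81 and 5.73 in LETO. All 3 OLETF arrays were lower than all LETO arrays, and LETO 1 was only just above OLETF 1. The mean was 5.42 ± 0.04 in OLETF and 5.69 ± 0.16 in LETO (SD, n = 3 each), a log2 difference of −0.27 (95% interval −0.51 to −0.03), or 1.21-fold lower (limma, adjusted p = 0.339). The second Pdha1 probe, which lies downstream of the first, gave 4.82, 4.77 and 4.67 in OLETF against 4.78, 5.11 and 5.02 in LETO. On that probe LETO 1 lay among the OLETF arrays, and the difference was −0.22 (adjusted p = 0.515 over all probes tested). Without LETO 1 the first probe gave −0.36, and with slide as a block −0.23. Only array quality weights, which count LETO 1 least, brought Pdha1 past the threshold (limma, adjusted p = 0.0256). Over the 18 alternatives the adjusted p of Pdha1 ran between 0.0256 and 0.989.

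The other subunits of the complex overlapped between the strains. Pdhb, the beta subunit of the same enzyme component, was at 3.45, 3.21 and 3.37 in OLETF and at 3.11, 3.37 and 3.46 in LETO, a difference of 0.03 (−0.26 to 0.32). Dlat, the acetyltransferase core, was at 2.95, 2.72 and 2.85 in OLETF and at 3.08, 2.95 and 2.91 in LETO, and its difference was −0.14 (−0.37 to 0.09). For Pdhb LETO 1 was the lowest array and for Dlat the highest, so the pair did not share 1 outlying direction. Dld, the lipoamide dehydrogenase that this complex shares with the oxoglutarate dehydrogenase complex, stood at 4.68, 4.61 and 4.62 in OLETF and 4.40, 4.63 and 4.63 in LETO. The OLETF arrays were close to LETO 2 and LETO 3, LETO 1 was the lowest array, and the difference was 0.09 (−0.14 to 0.31). Pdhx, the component that anchors Dld to the core, was read dimly, with 32.3 to 37.8 intensity units in OLETF and 23.4 to 34.8 in LETO. Its log2 difference of 0.17 had the interval −0.22 to 0.55, among the widest of the 31.

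**Figure D2:**
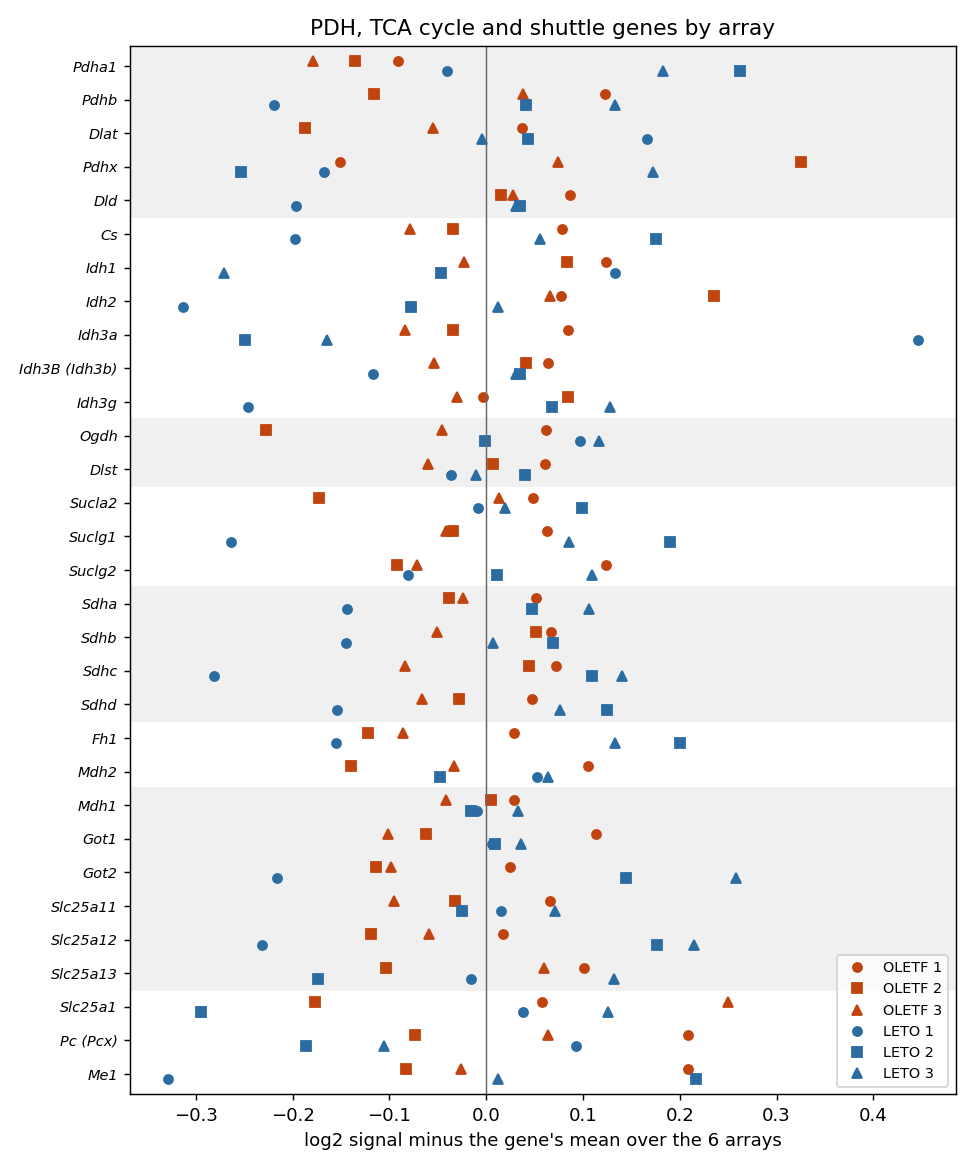
Log2 signal of each gene on each array minus the gene's mean over the 6 arrays (x axis), with 1 row per gene, OLETF in red and LETO in blue and a symbol per replicate; shading separates the roles. The strains overlap in every row except Pdha1, where the OLETF arrays lie to the left, and Idh2, where they lie to the right, and LETO 1 is the leftmost point in 15 of 31 rows.

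Citrate synthase, encoded by Cs, condenses acetyl-CoA with oxaloacetate and is widely used as a marker of mitochondrial content. Cs was at 4.56, 4.45 and 4.41 in OLETF, against 4.29, 4.66 and 4.54 in LETO, so the OLETF arrays lay inside the LETO range. Its difference was −0.02 (−0.30 to 0.25, limma, adjusted p = 0.979).

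Idh2 makes mitochondrial NADPH. It was at 7.99, 8.15 and 7.98 in OLETF, against 7.60, 7.84 and 7.93 in LETO. The groups did not overlap, but OLETF 3 and LETO 3 were close to each other. The difference was 0.25 (−0.01 to 0.52), or 1.19-fold higher (limma, unadjusted p = 0.0603, adjusted p = 0.440). Without LETO 1, the lowest array, it was 0.16, and with slide as a block 0.20. Over the 18 alternatives the difference of Idh2 ran between 0.12 and 0.35. Its cytosolic counterpart Idh1 was at 1.02, 0.98 and 0.87 in OLETF and 1.03, 0.85 and 0.62 in LETO, where LETO 1 was the highest array and LETO 3 the lowest. The difference of Idh1 was 0.12 (−0.16 to 0.41).

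The NAD-dependent isocitrate dehydrogenase, a regulated step of the cycle, is built from the subunits of Idh3a, Idh3b and Idh3g. Idh3a was at 1.60, 1.48 and 1.43 in OLETF, against 1.96, 1.26 and 1.35 in LETO. The OLETF arrays lay between LETO 1, which was high, and the other LETO arrays. The difference of Idh3a was −0.02 (−0.46 to 0.42) with all arrays and 0.20 without LETO 1. Idh3b (Idh3B on the array) gave 4.69, 4.67 and 4.57 in OLETF and 4.51, 4.66 and 4.66 in LETO. Idh3g gave 6.72, 6.81 and 6.69 in OLETF and 6.48, 6.79 and 6.85 in LETO. For these 2 regulatory subunits LETO 1 was the lowest array instead, and both differences were 0.03.

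Ogdh, the first component of the oxoglutarate dehydrogenase complex, stood at 4.37, 4.08 and 4.27 in OLETF, against 4.41, 4.31 and 4.43 in LETO. OLETF 2 was the lowest array, and OLETF 1 lay inside the LETO range. The difference was −0.14 (−0.38 to 0.10, limma, adjusted p = 0.726), and a second Ogdh probe gave −0.12. With slide as a block the difference was −0.01. Dlst, the succinyltransferase core of the same complex, was between 5.21 and 5.33 in OLETF and between 5.23 and 5.31 in LETO, with a difference of 0.00 (−0.19 to 0.20).

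Succinyl-CoA ligase makes a nucleoside triphosphate directly and pairs its alpha subunit, from Suclg1, with either of 2 beta subunits. Suclg1 was at 6.57, 6.47 and 6.47 in OLETF and 6.25, 6.70 and 6.59 in LETO, a difference of −0.01 (−0.32 to 0.30). Sucla2, the ADP-forming beta subunit, was between 4.10 and 4.32 in OLETF and between 4.26 and 4.37 in LETO, with a difference of −0.07. Suclg2, the GDP-forming one, was between 2.97 and 3.19 in OLETF and between 2.98 and 3.17 in LETO, with a difference of −0.03. In all 3 genes the strains overlapped, and the wide LETO range of Suclg1 came from a low LETO 1.

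The 4 subunits of succinate dehydrogenase, which is also complex II of the respiratory chain, overlapped between the strains and shared 1 array pattern. Sdha, the flavoprotein, was at 5.71, 5.62 and 5.63 in OLETF and 5.51, 5.70 and 5.76 in LETO. Sdhb, the iron-sulfur subunit, was at 6.35, 6.33 and 6.23 in OLETF and 6.14, 6.35 and 6.29 in LETO. The membrane anchors followed. Sdhc stood at 4.85, 4.82 and 4.69 in OLETF, against 4.50, 4.89 and 4.92 in LETO. Sdhd stood at 5.96, 5.88 and 5.84 in OLETF, against 5.76, 6.03 and 5.99 in LETO. LETO 1 was the lowest of the 6 arrays in 4 of 4 subunits. With all arrays the differences lay between −0.03 for Sdhd and 0.05 for Sdhb, while without LETO 1 all 4 were negative, with a median of −0.10, and with slide as a block all 4 were positive, with a median of 0.07.

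Of the promoters of the 4 Sdh genes, Sdha and Sdhd held a match to 1 of 3 motifs of mitochondrial gene promoters and Sdhb and Sdhc held none, so the first pair is shown, from RefSeq (GRCr8, 250 bases before to 50 after the gene start, 5′ to 3′ on the gene's strand). Capitals in Sdhd (chr8:59850592-59850891, minus strand) mark a match to the motif of the estrogen-related receptors, searched as TNAAGGTCA on both strands and found here as its reverse complement, 35 bases after the start. Capitals in Sdha (chr1:30764303-30764602, plus strand) mark matches to the motif of nuclear respiratory factor 1, searched as GCGCA, any base and GCGC on both strands.
Sdhd: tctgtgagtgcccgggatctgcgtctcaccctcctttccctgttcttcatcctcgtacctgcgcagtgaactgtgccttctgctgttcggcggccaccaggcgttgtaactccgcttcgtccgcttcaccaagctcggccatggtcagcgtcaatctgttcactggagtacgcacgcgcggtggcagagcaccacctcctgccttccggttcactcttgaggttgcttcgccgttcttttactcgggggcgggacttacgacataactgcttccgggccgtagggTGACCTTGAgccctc
Sdha: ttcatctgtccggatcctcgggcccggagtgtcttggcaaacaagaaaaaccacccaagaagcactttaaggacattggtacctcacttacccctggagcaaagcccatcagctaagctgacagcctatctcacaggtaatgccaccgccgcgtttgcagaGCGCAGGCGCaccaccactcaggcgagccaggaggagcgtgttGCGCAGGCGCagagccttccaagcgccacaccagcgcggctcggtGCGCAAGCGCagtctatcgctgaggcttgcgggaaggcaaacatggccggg

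Among the 29 of the 31 genes with a promoter entry, the estrogen-related receptor motif was in 1, or 3.45%, against 1.15% of 27457 promoters. The nuclear respiratory factor 1 motif was in 3 (Dld, Sdha and Sucla2), or 10.3%, against 4.71%. The ETS motif, searched as CCGGAAGT on both strands, was in Dlst and Mdh2, or 6.90%, against 4.01%. These counts are descriptions of letters in a window, and no factor binding was measured.

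Fumarase and mitochondrial malate dehydrogenase close the cycle. Fh1, now named Fh in RefSeq, was at 5.46, 5.31 and 5.34 in OLETF, against 5.27, 5.63 and 5.56 in LETO. The OLETF arrays lay below LETO 2 and LETO 3 and above LETO 1, so the difference of −0.12 (−0.39 to 0.16) was −0.23 without LETO 1. Mdh2 was at 4.30, 4.06 and 4.17 in OLETF and 4.25, 4.15 and 4.26 in LETO, with a difference of −0.05 (−0.27 to 0.18).

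The malate-aspartate shuttle uses malate dehydrogenase and aspartate aminotransferase on both sides of the membrane, with the carriers of Slc25a11 (oxoglutarate for malate) and of Slc25a12 and Slc25a13 (aspartate for glutamate). The differences of its 6 genes other than Mdh2 lay between −0.12 and 0.04, and 5 were negative. Got2, the mitochondrial aminotransferase, was at 4.04, 3.90 and 3.92 in OLETF and 3.80, 4.16 and 4.28 in LETO, a difference of −0.12 (−0.44 to 0.20). Slc25a12, the calcium-regulated carrier typical of heart and muscle, was at 3.88, 3.75 and 3.81 in OLETF and 3.63, 4.04 and 4.08 in LETO, a difference of −0.11 (−0.43 to 0.21). In both genes the OLETF arrays lay between a low LETO 1 and higher LETO 2 and LETO 3, and without LETO 1 the differences were −0.26 and −0.25, still without a call. The second Slc25a12 probe lies far upstream, is assigned to a different transcript record and gave 0.02. It read much dimmer than the first, between −1.31 and −1.20 in OLETF and between −1.59 and −0.99 in LETO.

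The rest of the shuttle varied little. Mdh1, the cytosolic malate dehydrogenase, was at 5.30, 5.28 and 5.23 in OLETF and 5.26, 5.25 and 5.30 in LETO, with a difference of −0.01 (−0.19 to 0.18). That interval was the narrowest of the 31 genes. Got1, the cytosolic aminotransferase, was at 4.42, 4.25 and 4.21 in OLETF, against 4.32, 4.32 and 4.35 in LETO, so the OLETF arrays spread wider than the LETO arrays around nearly the same mean. Slc25a11 was between 4.46 and 4.62 in OLETF and between 4.53 and 4.63 in LETO, a difference of −0.04. Slc25a13, the carrier form best known from liver, was between 0.11 and 0.32 in OLETF and between 0.04 and 0.35 in LETO, a difference of 0.04, and its second probe gave 0.02.

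All 3 genes that link the cycle to other pathways had small positive differences that did not pass. Pcx (Pc on the array), pyruvate carboxylase, was at 1.01, 0.73 and 0.86 in OLETF, against 0.89, 0.61 and 0.69 in LETO, a difference of 0.13 (−0.14 to 0.41). OLETF 1 was the highest array and LETO 2 the lowest, and the strains overlapped. Me1, the cytosolic malic enzyme that makes NADPH, was at 3.61, 3.32 and 3.38 in OLETF, against 3.07, 3.62 and 3.42 in LETO. Its difference was 0.07 (−0.30 to 0.44), its second probe gave 0.12, and without LETO 1 the first probe gave −0.08. Slc25a1, the citrate carrier, read dimly with 46.5 to 86.4 intensity units in OLETF and 46.0 to 68.3 in LETO, and its difference was 0.09 (−0.28 to 0.45).

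Where the cell has 2 forms of an enzyme, their balance within an array was compared between the strains. The log2 ratio of cytosolic over mitochondrial aminotransferase, Got1 over Got2, was 0.38, 0.34 and 0.29 in OLETF and 0.51, 0.16 and 0.07 in LETO, a difference of 0.09. For Mdh1 over Mdh2 the difference was 0.04, for Idh1 over Idh2 −0.13, for Slc25a12 over Slc25a13 −0.15 and for Sucla2 over Suclg2 −0.05. The strains overlapped in all 5 pairs. Exact two-sided permutation tests gave p-values between 0.5 and 0.9, all 0.9 after Benjamini-Hochberg adjustment over the 5 pairs, and 3 against 3 arrays cannot give less than 0.1.

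Seen by array, neither strain kept to 1 side. The median of their deviations from each gene's mean was 0.06, −0.04 and −0.05 in OLETF and −0.12, 0.04 and 0.07 in LETO. OLETF 1 was high, OLETF 2 and OLETF 3 low, LETO 1 lowest of all, and LETO 2 and LETO 3 high. LETO 1 was the lowest array for 15 genes, 48.4%, against 28.7% of all genes, and the highest for 3 (Dlat, Idh1 and Idh3a), 9.68%, against 23.9%. A low LETO 1 was not particular to the 31 genes. It was the lowest array for 65.8% of respiratory chain, 72.7% of fatty acid oxidation and 60% of mitochondrial content and biogenesis genes. The median deviations of these lists on LETO 1 were −0.18, −0.20 and −0.19. The median SD within a strain was 0.0814 in OLETF and 0.153 in LETO, against 0.105 and 0.152 over all genes. The SD was larger in LETO for 21 of the 31 genes, 67.7%, near the 63.7% of all genes. On LETO 1 the median deviation was 0.78 for red blood cell, 0.65 for lymphocyte, 0.32 for macrophage and 0.15 for fibroblast markers. It was 0.10 for adipocyte, 0.07 for endothelial, −0.03 for smooth muscle and −0.05 for cardiomyocyte markers. The red blood cell median was larger on LETO 2, at 1.03, and the markers of that list did not agree on LETO 1. Slc4a1 had its lowest signal there (−3.15), while Hba-a2 (3.63) and Hbb (1.93) lay above all OLETF arrays. Cardiomyocyte markers were lower on OLETF 1 (−0.09) and OLETF 3 (−0.14) than on LETO 1. The part of these cells in the low values was not tested.

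**Figure D3:**
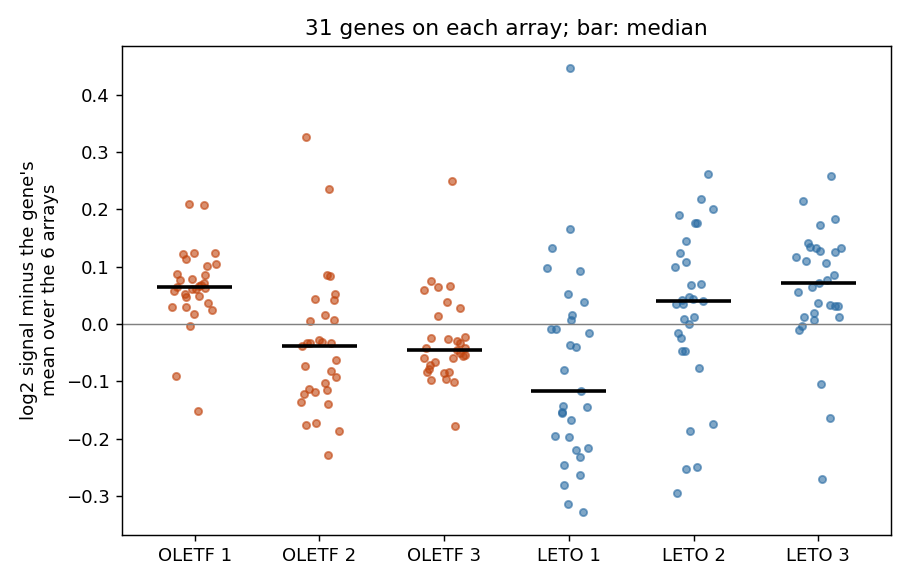
Log2 signal of the 31 genes minus each gene's mean over the 6 arrays (y axis), 1 point per gene, by array with OLETF at the left; bars mark medians. The medians are 0.06, −0.04 and −0.05 on OLETF 1 to 3 and −0.12, 0.04 and 0.07 on LETO 1 to 3.

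The balance of positive and negative differences changed with the arrays compared. Without LETO 1, 23 of the 31 differences were negative, 74.2% against 53.5% of all genes, with a median of −0.07 and 0 called. With slide as a block, which sets OLETF 1 against the 3 LETO arrays, 24 were positive, against 8892 of all 18816 genes, with a median of 0.07 and again 0 called. The interval then lay inside 1.5-fold for 24 of the 31 genes, against 10217 of all genes. With 1 OLETF array in that comparison, the strain and that single animal cannot be told apart. Pdha1 stayed negative in both, at −0.36 and −0.23, and Idh2 positive, at 0.16 and 0.20.

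**Figure D4:**
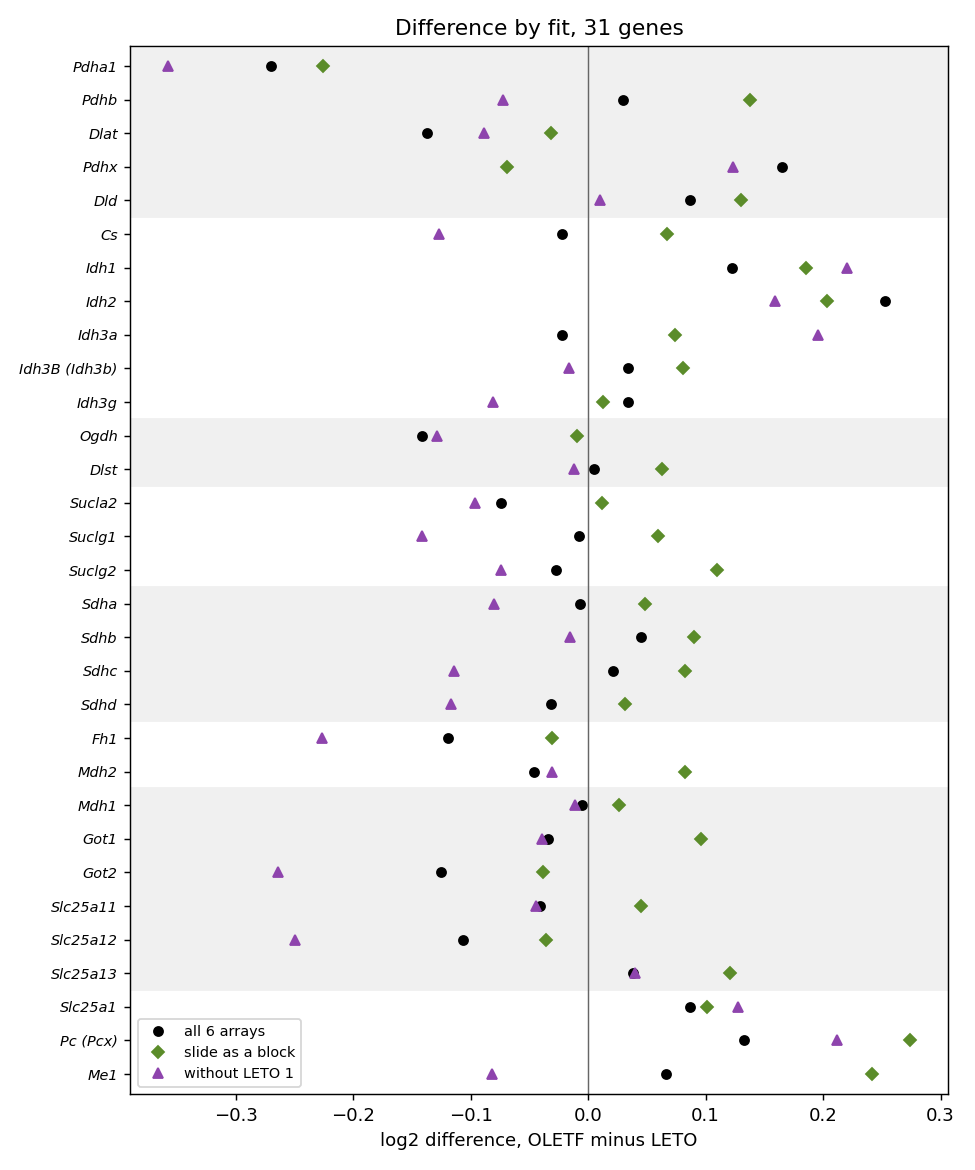
Log2 difference (OLETF minus LETO, x axis) of each gene with all 6 arrays (black circles), with slide as a block (green diamonds, OLETF 1 against LETO 1 to 3) and without LETO 1 (purple triangles); shading separates the roles. Medians are −0.0069, 0.07 and −0.07, and Pdha1 lies left of 0 and Idh2 right of 0 in all 3.

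Of 11 tested genes that control or feed pyruvate dehydrogenase, 0 were called by limma and 2 had an unadjusted p under 0.05, against 2.55% and 12.4% of all genes, with a median difference of 0.08. Pdp1, the phosphatase that activates the complex, was at 2.33, 2.24 and 2.29 in OLETF, against 1.89, 2.11 and 2.03 in LETO. All OLETF arrays were higher, and the difference was 0.27 (0.06 to 0.49, limma, adjusted p = 0.26). Pdk4, the kinase that inactivates the complex and is known to be induced by fasting and fatty acids, was at −1.28, −0.88 and −0.33 in OLETF and −1.67, −1.09 and −2.40 in LETO. The strains overlapped, and the difference of 0.89 had an interval of 0.04 to 1.75 (adjusted p = 0.373).

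Among 12 further tested genes of TCA enzymes, lipoylation and succinate dehydrogenase assembly, 1 was called, lower in OLETF, against 2.55% of all genes. The other 11 did not pass, and the median difference of the list was 0.00. Dhtkd1, an oxoadipate dehydrogenase related to Ogdh, fell by 1.00 ± 0.15 on the log2 scale (SE, limma, adjusted p = 0.0180), with −5.26, −5.79 and −5.75 in OLETF against −4.57, −4.58 and −4.65 in LETO. It was well above background on 2 of 3 OLETF arrays and entered the test through the 3 LETO arrays, where it is higher, so its call is no support for a change in the list. The call was lost without OLETF 2, OLETF 3, LETO 1, LETO 2 or LETO 3 and with slide as a block (−0.66).

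Of 18 genes of other shuttles, anaplerosis and citrate use, 0 were called by limma and 3 had an unadjusted p under 0.05, again against 2.55% and 12.4% of all genes, with a median of 0.02. Me3, a mitochondrial malic enzyme, was at 2.38, 2.43 and 2.41 in OLETF and 2.56, 2.69 and 2.72 in LETO, a difference of −0.25 (adjusted p = 0.267). Slc25a10, the dicarboxylate carrier, was at −0.14, 0.03 and −0.06 in OLETF and −0.16, −1.02 and −1.08 in LETO. LETO 1 lay next to the OLETF arrays for Slc25a10, and the difference was 0.70 (adjusted p = 0.272). Without LETO 1 the difference was 0.99, and Slc25a10 passed.

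Calls in neighbouring mitochondrial pathways were near or below the share of all genes called, 2.55%. Of 20 genes of mitochondrial content and biogenesis 0 were called, and 0 had an unadjusted p under 0.05 (limma), with a median of −0.01. Nrf1, the respiratory factor whose motif was searched above, gave −0.15 and Ppargc1a, a coactivator of mitochondrial biogenesis, −0.19. Of 38 respiratory chain genes 1 fell and 37 did not pass, with a median of −0.04 and 6 positive differences, and without LETO 1 all 38 were negative, with a median of −0.14. The gene that fell was Uqcrfs1, the Rieske iron-sulfur subunit of complex III, at 5.52, 5.45 and 5.45 in OLETF, against 6.11, 6.13 and 6.14 in LETO. Its log2 difference was −0.66 ± 0.08 (SE, adjusted p = 0.00681), and the call was lost without OLETF 3 and with slide as a block (−0.61). Of 22 fatty acid oxidation genes 0 were called and 2 had an unadjusted p under 0.05 (limma), with a median of 0.09 and 16 positive. Those were Echs1, enoyl-CoA hydratase, at −0.21, and Eci1, enoyl-CoA isomerase, at 0.26. Without LETO 1 the median of the fatty acid oxidation genes was −0.01, and with slide as a block it was 0.14, with 18 positive. The respiratory chain genes had a median of −0.04 with slide as a block, with 9 positive.

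**Figure D5:**
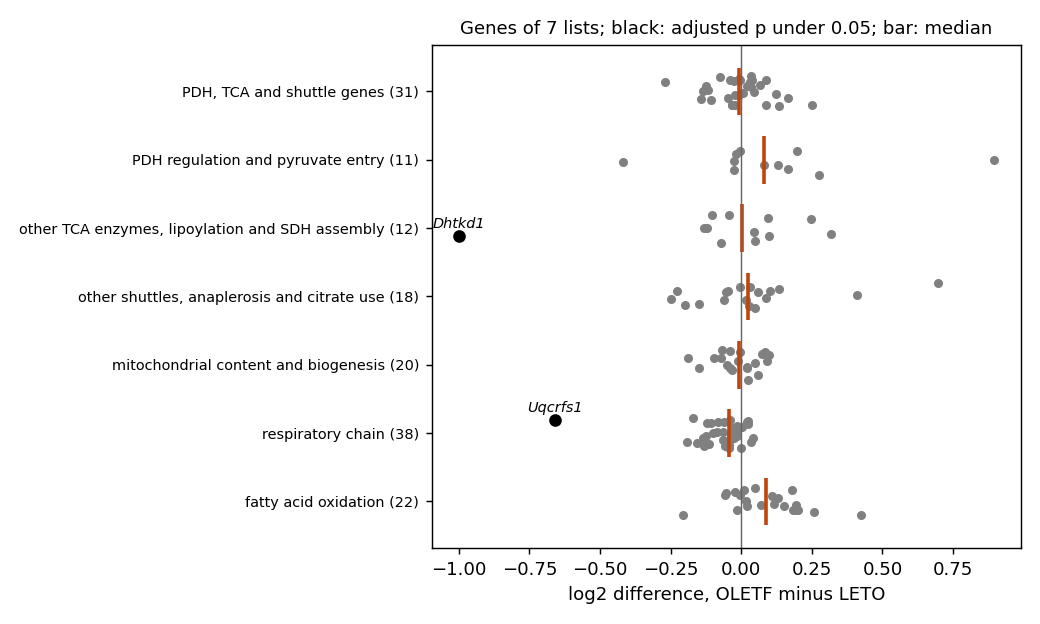
Log2 difference (OLETF minus LETO, x axis) of each tested gene in 7 lists (rows, with the number tested), 1 point per gene, red bars at the medians and black points for adjusted p under 0.05 in limma. The 31 genes lie between −0.27 and 0.25 with no black point, and the black points are Uqcrfs1 and Dhtkd1, the second of which was well above background on 2 of 3 OLETF arrays.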

How the data were processed

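The files hold spot intensity of 1-colour Agilent arrays, read with Feature Extraction 10.7.3.1 per the file headers (9.1 per the submitters' processing notes), with background already subtracted. A deposited table of values holds the same intensity divided by a constant per array, unlogged and uncentred (column medians 0.154, 0.157 and 0.159 in OLETF and 0.163, 0.154 and 0.158 in LETO). Groups and replicate numbers follow the titles, and the source name of LETO 2 reads replicate 1. Nothing beyond 3 independent experiments per strain is labelled, so p-values measure the spread between these samples.

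The processed signal was log2 transformed, and each array's 75th percentile (non-control probes) was subtracted. Left out were control spots and 260 to 356 outlier spots per array, and spots of a probe were averaged. A probe entered the test (21484 of 30367 did) if every array of 1 strain or the other read it well above background, and the brightest stood for its gene. The strains were compared with limma 3.58.1 under R 4.3.3 (lmFit, eBayes, Benjamini-Hochberg over 18816 genes, threshold 0.05). Scripts used data.table (1.17.8), Python 3.11.15, pandas 2.3.3, numpy 2.4.6 and matplotlib 3.10.9, and were tested on simulated data. Having 6 arrays limits the precision.

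The 31 genes and the other lists were chosen with earlier results of these data known. All 31 are named, and from each other pathway list the called genes, or up to 2 with the smallest p where none was called. Some items of the list of other TCA enzymes are not reported here. From the lists of cell type markers counts, medians and called genes are given. Other markers are named only where a list disagreed or a marker entered the test through LETO alone. Same-numbered arrays did not deviate together (r = −0.09, −0.14 and −0.01), so the replicate block is only an alternative. Probe positions are rn4, and promoters are RefSeq GRCr8. Protein sequences were not used here.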

Additional observations from a re-analysis of the deposited data

How the results depend on the processing

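Over 18 alternatives 0 of the 31 genes were called, except 1 (Pdha1, log2 difference −0.34) with array quality weights. Their median difference lay between −0.07 without LETO 1 and 0.07 with slide as a block, and over the fits that leave out 1 array between −0.07 and 0.02. The number of the 31 with an interval inside 1.5-fold, a count chosen after seeing the data, was 24 with slide as a block and 27 to 31 when 1 array was left out. Of 558 single-gene values 74 changed sign, the largest with a size of 0.20. The number of all genes called, 480, was 240 with no filter on dim probes, 1700 with array quality weights, 105 with slide as a block and 201 at an adjusted p under 0.01. It was 216 to 614 when 1 array was left out, and moved by over 1.5 times without OLETF 1 (314), OLETF 2 (227), OLETF 3 (216) or LETO 2 (284). With the replicate block 301 genes and 0 of the 31 were called, and the numbers pair no rats in the labels. The cause of these changes was not tested. Paired-enzyme ratios had p-values at or above 0.1 in every fit by design, which says nothing about stability. The dim probes of Pdhx and Slc25a1 limit what can be said of those genes.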
